A study of Ovis aries with 4 samples.

Results

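The inflammatory cytokine and NF-kappa-B response genes described here are IL1A, IL1B, IL6, IL18, CXCL8, NFKBIA and PTGS2. They were found by symbol in the deposited gene list, where all 7 occurred once, among 20150 genes of which 774 carry a symbol. Their identifiers are ENSOARG00000020877 (IL1A), ENSOARG00000020866 (IL1B), ENSOARG00000012021 (IL6), ENSOARG00000016193 (IL18), ENSOARG00000014496 (CXCL8), ENSOARG00000007502 (NFKBIA) and ENSOARG00000007592 (PTGS2). They were measured by droplet single-cell RNA sequencing in mammary gland of 4 lactating sheep, with 1 library per ewe. The LL libraries (n = 2) come from ewes in late lactation, and the LH libraries (n = 2) were taken as peak lactation because the study names those stages alone. Breed, age and treatment of the ewes are not given in the labels, and all 4 were lactating, so no dry gland serves as a control. After filtering, 5669 and 8954 cells of the LH libraries and 12143 and 10568 cells of the LL libraries were kept, from deposited totals of 28015149 to 65339993 unique molecular identifiers (UMIs) per library.

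NF-kappa-B is a family of transcription factors held inactive in the cytoplasm by inhibitor proteins. When receptors for interleukin 1, tumour necrosis factor or microbial products are engaged, the inhibitors are degraded and NF-kappa-B switches on cytokine genes together with the gene of its own inhibitor. In the mammary gland this pathway is best known from mastitis, where macrophages and epithelial cells release cytokines that draw neutrophils into milk. IL1A and IL1B encode ligands of the interleukin 1 receptor, IL18 a related cytokine that, like IL1B, needs cleavage to become active. IL6 encodes a cytokine that signals through STAT3, and CXCL8 a chemokine that attracts neutrophils. NFKBIA encodes the inhibitor that NF-kappa-B itself induces, and PTGS2 the inducible cyclooxygenase that starts prostaglandin synthesis.

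Cells were grouped by the UMIs of marker genes. The gates were C1QA (a complement gene of macrophages), CD14 outside the C1QA gate, EDNRA/IGFBP7 (mural and other stromal cells), DCN (fibroblasts), EPCAM/CLDN4 (epithelium), SELP/KDR (endothelium) and CD3E (T cells). Together the gates held 934, 59, 8781, 2753, 4430, 1361 and 4435 cells in that order. Another 9440 cells met no gate, and 5141 cells, 13.8% of those kept, met several. The gates are named by their genes, because 59.9% of CD3E cells and 88.1% of CD14 cells were admitted on 1 UMI. In the EDNRA/IGFBP7 gate 54.4% of cells had a UMI of EDNRA, and the rest entered through IGFBP7 alone. Endothelial cells without a UMI of SELP or KDR may be among the latter. In the C1QA gate the 5 macrophage markers with a symbol summed to 6130 to 7029 UMIs per 1000000 UMIs of the gate (CPM). The 7 T cell markers summed to 13.1 to 34.98 CPM there, over the same 4 libraries. Both sums were partly set by the gate rule, as C1QA itself gave 4953 to 5830 CPM and cells with CD3E were left out. Of the other macrophage markers, CD86 had 804.8 to 1059 CPM, MRC1 217.5 to 385.2, CD14 32.1 to 54.76 and ITGAM 18.51 to 27.47. The DCN gate had only 18 cells in LH replicate 2, and the CD14 gate 6 to 24 cells per library. Stages were therefore not compared in them. CD14 cells had 50.99 to 315.6 CPM of CD86 and 0 to 50.99 CPM of MRC1, less than C1QA cells. RELN, listed as an endothelial marker, had 19.72 to 1785 CPM in the CD14 gate and 6.617 to 15.79 CPM in the C1QA gate. The CD14 gate may thus hold cells other than myeloid ones. Pairs of libraries shared 15 to 39 cell barcodes, of 5955 to 12733 barcodes per library, and carry-over between libraries was not tested.

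The 7 genes split into myeloid, stromal and epithelial sources. IL1A, IL1B and CXCL8 were concentrated in the C1QA gate, which held 65.5%, 63.3% and 79.9% of their UMIs and 2.12% of all UMIs. IL6 was concentrated in the EDNRA/IGFBP7 gate, with 56.3% of its 1393 UMIs, and had 2 UMIs in the C1QA gate. PTGS2 was on average highest in the DCN gate, with 42.2% of its UMIs in a group that held 4.52% of all UMIs. IL18 was shared between C1QA and EPCAM/CLDN4 cells, and NFKBIA was found in every gate.

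**Figure D1:**
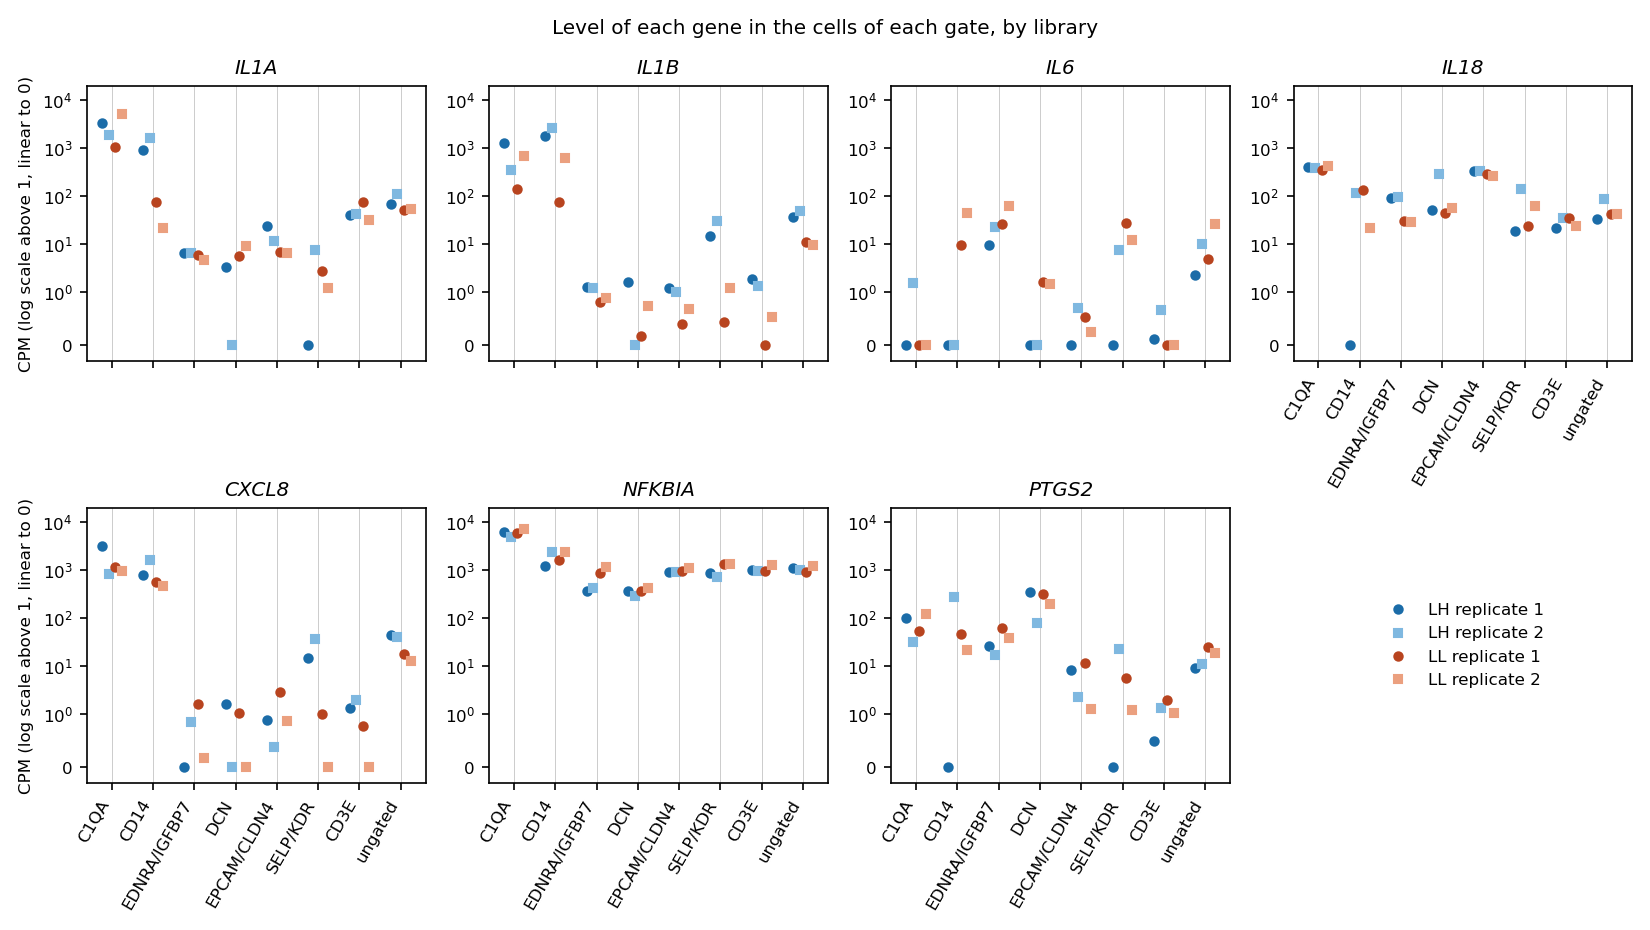
Level of each gene in CPM (log scale above 1 and linear to 0) in each gate, with 1 point per library. IL1B and CXCL8 stand highest in the C1QA and CD14 gates in each library, IL1A stands highest in the C1QA gate, IL6 is highest in EDNRA/IGFBP7 cells in 3 of the 4 libraries, and PTGS2 is highest in DCN cells in 3 of the 4 libraries.

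The interleukin 1 genes came first among the myeloid members. IL1A in the C1QA gate had 3399 and 1888 CPM at LH against 1066 and 5225 CPM at LL. The 2 stages overlapped, with LL replicate 2 the highest and LL replicate 1 the lowest of the 4. IL1A was detected in 50%, 52.1%, 47.3% and 63.9% of C1QA cells. Among the 576 of 934 cells that reached 2000 UMIs, each thinned to that depth, the mean of the 4 library shares was 67.7%. IL1B in the same gate had 1298 and 346 CPM at LH against 139 and 701 CPM at LL, and was detected in 42.4%, 22.6%, 21.1% and 40.3% of cells. IL1A was therefore the higher of the pair in counts in each library, by 2.62, 5.45, 7.64 and 7.45 UMIs of IL1A per UMI of IL1B. These ratios are counts and are not corrected for transcript length.

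In the CD14 gate the order of the pair was otherwise. IL1B had 1836 and 2604 CPM at LH against 76.2 and 615 CPM at LL, from 59 cells in all. IL1A had 918 and 1657 CPM at LH against 76.2 and 22.0 CPM at LL. The ratio of IL1A to IL1B was 0.544 over the joined CD14 cells against 4.21 over the joined C1QA cells. This description rests on 111 and 204 UMIs in the CD14 gate, whose cells may be of several types.

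Outside the myeloid gates IL1B reached 9.50 to 49.6 CPM in ungated cells and had 14.4 and 29.6 CPM in SELP/KDR cells at LH, from 3 and 8 UMIs. It was detected in 0 to 0.673% of CD3E cells, at a median depth of 2954 UMIs per cell, against 3339.5 UMIs in the C1QA gate. IL1A was more frequent in the same CD3E cells. It had 39.9 and 42.0 CPM at LH against 74.7 and 32.4 CPM at LL, and was detected in 5.09% to 10.5% of cells. In the EDNRA/IGFBP7 gate, at a median of 2530 UMIs, IL1A was detected in 0.781% to 1.46% of cells and had 4.61 to 6.57 CPM. The 644 IL1A UMIs of CD3E cells came with 18 of IL1B and 16 of CXCL8, or 35.8 and 40.3 UMIs of IL1A per UMI of each. In the C1QA gate the same ratios were 4.21 and 1.45. The part of free RNA in these values was not tested.

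CXCL8 in the C1QA gate had 3282 and 855 CPM at LH against 1191 and 973 CPM at LL. LH replicate 1 stood apart and the stages overlapped. It was detected in 52.4%, 37.2%, 59.0% and 45.4% of C1QA cells and in 0 to 0.547% of CD3E cells. In the CD14 gate it had 816 and 1657 CPM at LH against 581 and 461 CPM at LL. In EDNRA/IGFBP7, DCN, EPCAM/CLDN4 and CD3E cells it stayed between 0 and 2.89 CPM. SELP/KDR cells had 14.4 and 37.0 CPM at LH, from 3 and 10 UMIs, and 1.02 and 0 CPM at LL. CXCL8 was the member most restricted to myeloid cells by its share of UMIs.

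These transcripts were unevenly spread among C1QA cells. In LH replicate 1 the 21 cells with most of each gene held 47.8% of the IL1A, 65.8% of the IL1B and 43.9% of the CXCL8 UMIs, in a gate of 210 cells. IL1B-positive C1QA cells were deeper than the others, with median UMIs of 9033, 6771, 8003 and 3946 against 1268, 1416, 4655 and 2215. NFKBIA had 7987, 6437, 7376 and 9796 CPM in the IL1B-positive cells and 2793, 3761, 5293 and 3838 CPM in the rest. The part of depth in that contrast was not tested.

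At equal depth the 3 cytokines were found in the same C1QA cells more often than their single shares would give. Thinned to 2000 UMIs, IL1A and IL1B occurred together in 59, 45, 19 and 33 cells, against 46.7, 32.7, 10.2 and 27.0 expected from the shares of each library. IL1A and CXCL8 occurred together in 81, 78, 81 and 40 cells, against 63.8, 59.6, 57.8 and 31.6. IL1B and CXCL8 occurred together in 60, 31, 18 and 26 cells, against 46.7, 22.9, 12.2 and 16.5. All 3 pairs were above expectation in all 4 libraries. For the pairs of IL18 with these genes the ratio of observed to expected was between 0.962 and 1.17, against 1.22 to 1.86 for the pairs above.

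C1QA cells thus ranged from none to all 3 of IL1A, IL1B and CXCL8. All 3 were found in 50% of the 116 cells of LH replicate 1 that reached 2000 UMIs. The same share was 18.3% of 169 cells in LH replicate 2, 8.33% of 204 cells in LL replicate 1 and 29.9% of 87 cells in LL replicate 2. None of the 3 was found in 19.8%, 24.9%, 32.4% and 19.5%. The libraries of 1 stage differed as much as the stages did, and no p was computed because cells of 1 ewe are not replicates.

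**Figure D2:**
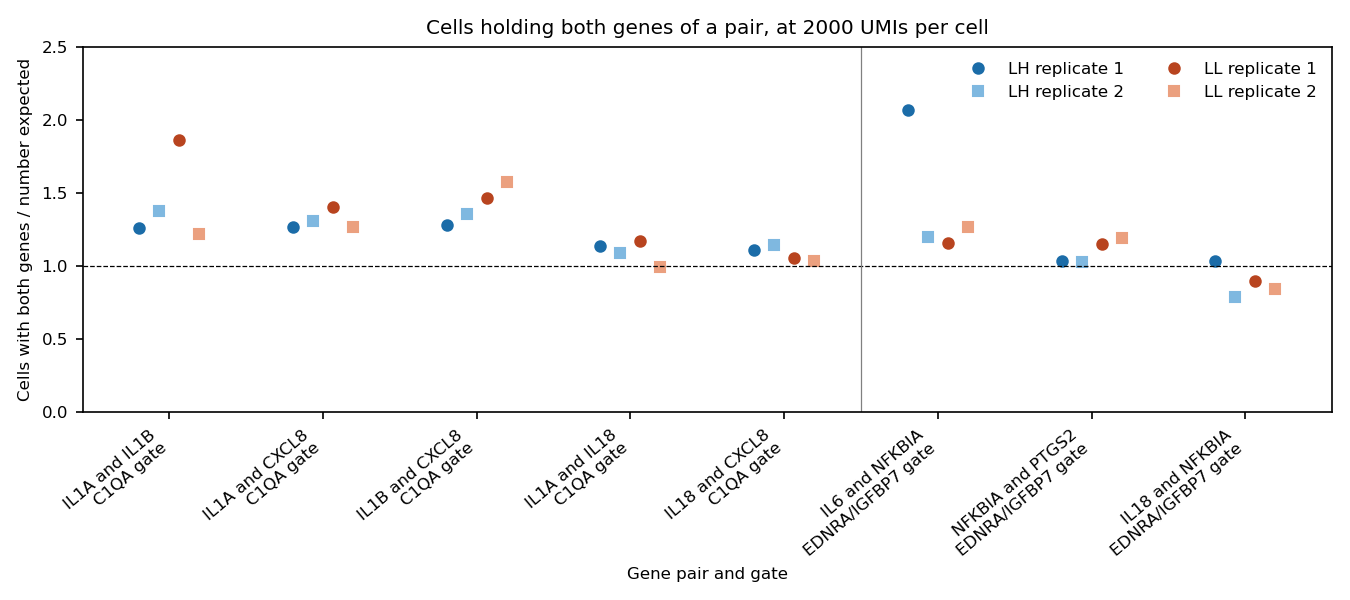
Number of cells with both genes of a pair divided by the number expected from the 2 shares, at 2000 UMIs per cell, with 1 point per library. The pairs of IL1A, IL1B and CXCL8 in the C1QA gate lie between 1.22 and 1.86, above the dashed line at 1, whereas the 2 IL18 pairs lie between 1.00 and 1.17; the highest point in the EDNRA/IGFBP7 gate rests on 4 cells.

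A further group of cells carried the same genes without meeting the C1QA gate. Among ungated cells 51 had at least 2 IL1B UMIs, chosen on that measure and so described without a test. Their median depth was 977 UMIs. They had 1632 CPM of CXCL8, 2141 CPM of IL1A and 5222 CPM of NFKBIA, with 151 CPM of C1QA and 514 CPM of TLR4, the receptor of bacterial lipopolysaccharide. C1QA cells with at least 2 IL1B UMIs, numbering 188, had 187 CPM of TLR4 and a median of 7804 UMIs. The TLR4 value of the ungated cells rests on few UMIs, with 10 in the 9 cells of LH replicate 1. The macrophage marker MRC1 was not low in the ungated cells of the LH libraries. It had 868 and 208 CPM there, from 22 and 16 UMIs, against 381 and 217.5 CPM in the whole C1QA gate. The type of these cells was not tested. None of the 6 neutrophil markers listed has a symbol here, so neutrophils were not analysed here.

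IL18 had 2 main sources. In the C1QA gate it had 398 and 382 CPM at LH against 357 and 427 CPM at LL, with a spread (391 ± 29.4 CPM, SD, n = 4) far smaller than that of the interleukin 1 genes. In the EPCAM/CLDN4 gate it had 342 and 329 CPM at LH against 296 and 260 CPM at LL, each library lying below the lowest C1QA value of 357. Because epithelial cells were numerous and deep, the EPCAM/CLDN4 gate held 36.4% of IL18 UMIs and the C1QA gate 4.25%. The cells that met several gates held 49.9% of them, and 70.0% of those cells had a UMI of EPCAM or CLDN4. IL18 was detected in 60.9%, 76.5%, 65.8% and 70.5% of EPCAM/CLDN4 cells, whose median depth was 8291.5 UMIs. In the 4138 cells thinned to 2000 UMIs the mean of the 4 library shares was 38.1%. The share in CD3E cells was 5.09% to 8.68%, or 2.4% to 6.44% at 2000 UMIs.

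NFKBIA was the one member present in most cells. Its level in the C1QA gate was 6425 and 4875 CPM at LH against 5912 and 7136 CPM at LL, above every library of every other gate. The next gate was CD14, with 1935 ± 619 CPM (SD, n = 4). SELP/KDR, ungated, CD3E and EPCAM/CLDN4 cells followed at means of 1076, 1068, 1057 and 982 CPM, with overlapping libraries. DCN cells were lowest at 365 ± 57.4 CPM. The gene was detected in 86.9% to 90.2% of EPCAM/CLDN4 cells, and in 68.3% on average at 2000 UMIs.

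IL6 had its largest share of UMIs in the stromal EDNRA/IGFBP7 gate. There it had 9.54 and 22.3 CPM at LH against 26.5 and 63.3 CPM at LL, from 15, 183, 229 and 357 UMIs. It was detected in 1.70%, 3.45%, 4.29% and 6.45% of those cells and in 0 to 0.182% of CD3E cells. The 934 C1QA cells held 2 IL6 UMIs in all. SELP/KDR cells had 0 and 7.39 CPM at LH against 27.0 and 11.9 CPM at LL, and in LL replicate 1 they held 32.9% of the library's IL6 UMIs. DCN cells, the other stromal gate, had 0 to 1.60 CPM. With EDNRA itself detected, the gate's cells had 7.13, 20.2, 26.0 and 62.0 CPM of IL6, and those admitted through IGFBP7 alone 15.5, 25.0, 27.1 and 65.2 CPM.

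PTGS2 was the member of the DCN gate, with 354 and 79.3 CPM at LH against 320 and 196 CPM at LL. The low value, of LH replicate 2, rests on 3 UMIs in 18 cells. PTGS2 was detected in 28.4%, 16.7%, 29.9% and 18.5% of DCN cells and in 0.135% to 0.549% of CD3E cells. C1QA cells had 99.3, 31.6, 54.9 and 121 CPM, and detection there was 6.59% to 14.3%. EDNRA/IGFBP7 cells had 26.1 and 16.8 CPM at LH against 62.5 and 38.3 CPM at LL. In that gate PTGS2 gave 0.0325, 0.0156, 0.0384 and 0.0318 UMIs per UMI of 5 fibroblast markers, DCN left out. In the DCN gate the same ratio was 0.0287, 0.00677, 0.0304 and 0.0181. The value of 0.00677, of LH replicate 2, rests on 3 UMIs. The part of fibroblast transcripts in the PTGS2 values of the EDNRA/IGFBP7 gate was not tested.

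**Figure D3:**
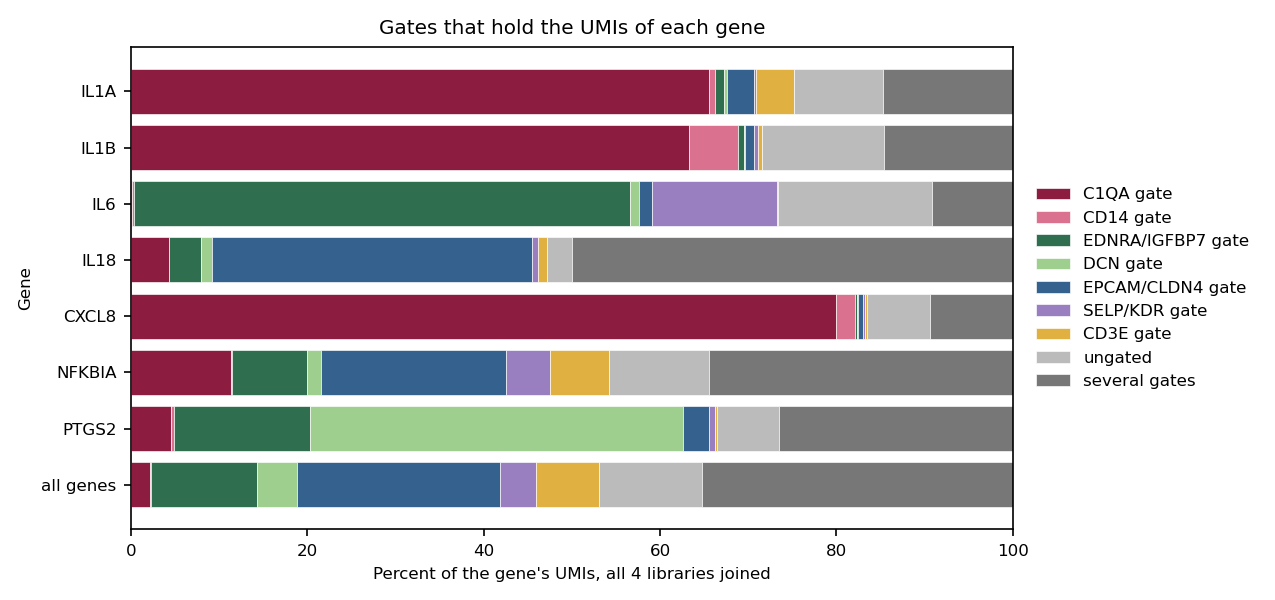
Percent of each gene's UMIs, all 4 libraries joined, held by each gate, by ungated cells and by cells that met several gates, with the same split over all genes in the lowest bar. The C1QA gate holds 65.5%, 63.3% and 79.9% of IL1A, IL1B and CXCL8, the EDNRA/IGFBP7 gate 56.3% of IL6 and the DCN gate 42.2% of PTGS2.

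To put a size on the split of sources, summed UMIs of myeloid cells (C1QA and CD14 gates joined) were compared with each stromal gate. The library was a block. Of the joined UMIs the C1QA gate gave 4215619 and the CD14 gate 220797. Against the EDNRA/IGFBP7 gate, 6 of the 7 members were higher in myeloid cells and 1, IL6, was lower (edgeR quasi-likelihood test, Benjamini-Hochberg adjustment over 9161 genes, n = 4 libraries). Of all genes tested, 26.3% were called higher and 26.1% lower. CXCL8 was higher by 10.56 ± 0.50 (log2 fold change ± SE, adjusted p = 7.1e-07), IL1B by 8.85 ± 0.37 (4.4e-07) and IL1A by 8.72 ± 0.44 (1.0e-06). In the EDNRA/IGFBP7 gate these 3 genes had only 22, 24 and 141 UMIs. They passed the low-count filter through the myeloid sums, and IL6 passed it through the EDNRA/IGFBP7 sums. Their calls therefore restate the levels above and are no separate support for the split. NFKBIA was higher by 3.33 ± 0.31 (2.8e-05) and IL18 by 2.95 ± 0.32 (6.0e-05). IL6 was lower, at a log2 fold change of -4.28 ± 0.41 (3.3e-05), a value that rests on 5 myeloid UMIs. PTGS2 was higher by 1.24 ± 0.32 (0.010). Its adjusted p was 0.0527 without LL replicate 2, so that call depends on this library.

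Against the DCN gate, with LH replicate 2 left out for its 18 cells, the picture for PTGS2 turned. It was lower in myeloid cells, at a log2 fold change of -1.52 ± 0.30 (edgeR, adjusted p = 0.0035, 9047 genes, n = 3 libraries). CXCL8, IL1B, IL1A, NFKBIA and IL18 were higher, by 10.87, 9.77, 8.72, 4.24 and 3.13. The first 3 of these had only 7, 4 and 59 UMIs in the DCN gate and passed the low-count filter through the myeloid sums. The size of their fold changes is thus loosely fixed, and their calls are no separate support for the split. IL6 did not pass the filter on low counts. Among all genes tested here, 22.9% were called higher and 23.2% lower, beside 5 and 1 of the 6 members tested. DESeq2 gave the same direction and call for each member in both comparisons.

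Other genes of the pathway were taken from a list of 92, of which 28 carry a symbol. Of the 16 tested against the EDNRA/IGFBP7 gate, 12 were higher in myeloid cells and 1 was lower, with a median log2 fold change of 1.93 against -0.06 over all genes. Tumour necrosis factor (TNF) was higher by 5.68 ± 0.63, the neutrophil chemokine CXCL1 by 5.72 ± 0.38 and the adhesion receptor ICAM1 by 1.78 ± 0.32. The pattern receptors TLR8, TLR7, TLR2 and TLR4 were higher by 7.50, 7.2, 5.47 and 4.02. IL15, a cytokine of T and NK cells, was the gene that was lower, at -2.73 ± 0.42. Against the DCN gate 11 of 14 were higher and 0 lower by edgeR and by DESeq2, and at an unadjusted p under 0.05 the count was 11. Receptors and inhibitors of the members, such as IL1R1, IL1RN, IL6R, IL18BP, CXCR2 and TNFAIP3, carry no symbol and were not analysed here.

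Stages were compared gate by gate on summed UMIs of 2 ewes against 2. In no gate did a member pass an adjusted p of 0.05 by edgeR. The background was as low: 0.0125% of 7976 genes were called in the C1QA gate, 0.0342% of 11685 in the EDNRA/IGFBP7 gate, 0.0156% of 12783 in the EPCAM/CLDN4 gate and 0.0111% of 8969 in the CD3E gate. In the SELP/KDR gate (6690 genes), in ungated cells (11905 genes) and over all kept cells (15357 genes) 0% were called, with 315, 718 and 655 genes at an unadjusted p under 0.05 and 19, 76 and 96 called by DESeq2. Each ewe gave 1 library, so the p-values measure the spread between ewes and between their libraries together.

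In the EDNRA/IGFBP7 gate 4 of the 5 members tested, NFKBIA, IL18, IL6 and PTGS2, reached an unadjusted p below 0.05 by edgeR. Of all 11685 genes tested in this gate, 828 did. NFKBIA had 377 and 432 CPM at LH against 883 and 1174 CPM at LL, with no overlap. IL18 went the other way, at 91.6 and 98.3 CPM at LH against 30.8 and 28.9 CPM at LL. IL6 and PTGS2, given above, were also higher in both LL libraries than in either LH library, though IL6 in LH replicate 2 (22.3 CPM) and LL replicate 1 (26.5 CPM) lay close together. IL1A was low in all 4 libraries, at 6.36 and 6.57 CPM at LH and 5.91 and 4.61 CPM at LL.

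In this gate NFKBIA had a log2 fold change of 1.37 ± 0.19 (edgeR, unadjusted p = 0.00037, adjusted p = 0.408) and IL18 one of -1.64 ± 0.17 (unadjusted p = 6.4e-05, adjusted p = 0.151). PTGS2 had 1.34 ± 0.35 (adjusted p = 0.589) and IL6 1.40 ± 0.51 (adjusted p = 0.667). None passed by edgeR. Of all 11685 genes of the gate 828 reached an unadjusted p below 0.05, and DESeq2 called 60, among them NFKBIA and IL18, each at an adjusted p of 1.1e-06. Over the alternatives tried the adjusted p ranged from 1.06e-06 to 0.769 for NFKBIA and from 1.06e-06 to 0.620 for IL18, with no change of sign. The count of genes called in this gate was 4, and became 31 without LH replicate 2 and 1 without LL replicate 2.

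**Figure D4:**
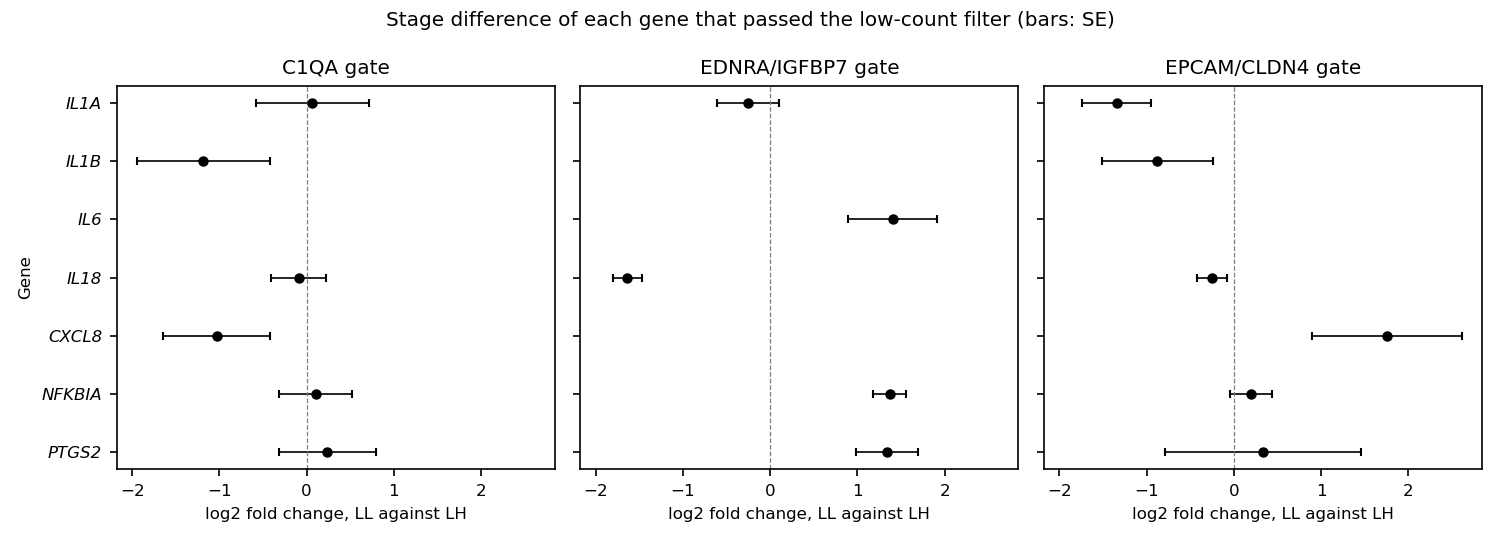
Log2 fold change of LL against LH for the members that passed the low-count filter in 3 gates, with SE as bars (edgeR, 2 libraries per stage). In the EDNRA/IGFBP7 gate IL18 lies at -1.64 and NFKBIA, PTGS2 and IL6 between 1.34 and 1.40, whereas no member of the C1QA gate lies beyond -1.18.

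The make-up of the EDNRA/IGFBP7 gate also differed between the stages. Cells with FABP4, a fatty acid carrier of capillary endothelium and fat cells, made up 12.6% and 8.23% of the gate in LH and 34.6% and 34.2% in LL. Cells with at least 2 UMIs of TPM1, a tropomyosin of contractile cells, made up 69.4% and 57.6% in LH and 50.3% and 40.9% in LL. Within the TPM1 cells NFKBIA had 330 and 297 CPM at LH against 597 and 715 CPM at LL. Within the FABP4 cells it had 528 and 746 CPM at LH against 1307 and 1590 CPM at LL. IL18 was likewise lower in both LL libraries within each part, at 98.6 and 125 CPM against 40.1 and 39.1 CPM in the TPM1 cells. Fitted on the TPM1 cells alone, the log2 fold change was 1.10 for NFKBIA (edgeR, adjusted p = 0.474) and -1.47 for IL18 (0.367).

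**Figure D5:**
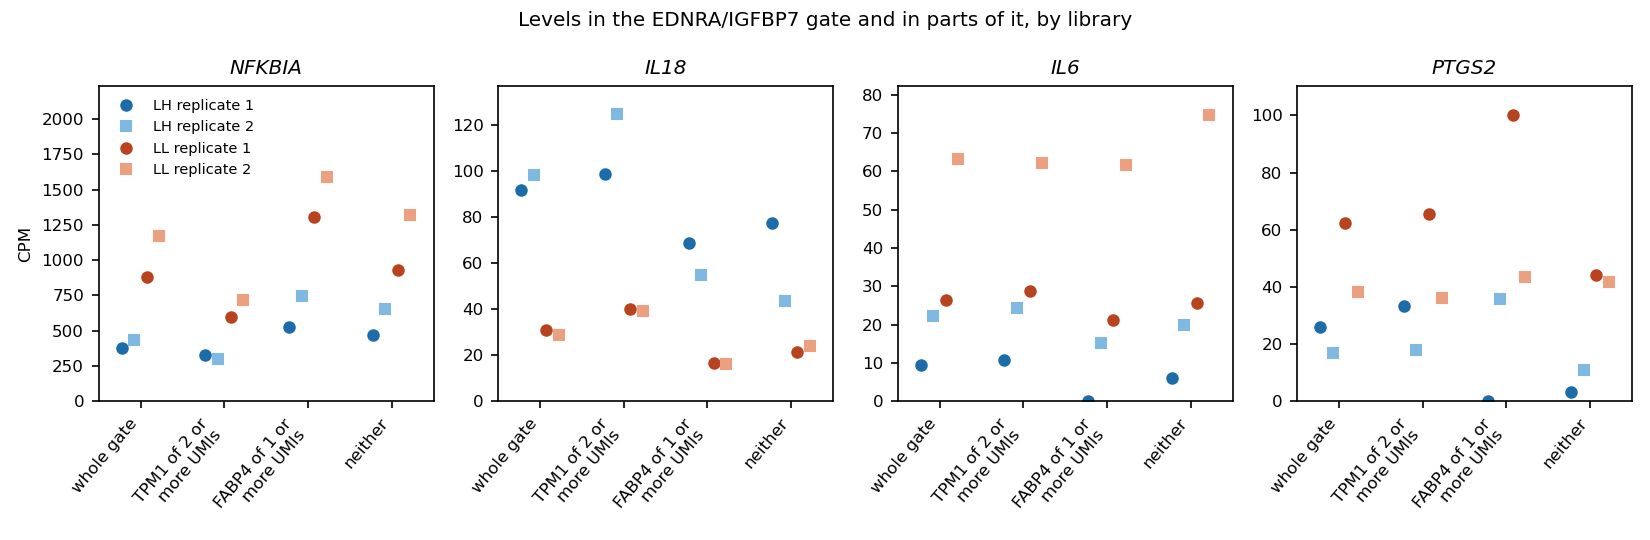
CPM of 4 members in the whole EDNRA/IGFBP7 gate and in its parts (cells with at least 2 UMIs of TPM1, cells with at least 1 UMI of FABP4, and cells with neither), with 1 point per library. Both LL libraries lie above both LH libraries for NFKBIA and below them for IL18 in every part, and LH replicate 1 has 0 CPM of IL6 and PTGS2 in its 52 FABP4 cells.

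Some other transcripts also differed between the stages. The 8 immediate early genes with a symbol, which also rise when tissue is dissociated, summed to 9083 and 11820 CPM at LH in this gate. At LL they summed to 15320 and 13910 CPM. FOS made up most of these sums, at 5764 and 7826 CPM at LH against 8459 and 7834 CPM at LL. HSPA1A was lower in both LL libraries (82.7 and 78.7 CPM at LH, 73.8 and 57.1 CPM at LL), and KLF4 and MYC overlapped between the stages. BTG2, CDKN1A and ZFP36 had log2 fold changes of 1.17, 1.20 and 0.84, none passing by edgeR (adjusted p = 0.524, 0.540 and 0.508) and all called by DESeq2. The summed fibroblast markers were 815 and 1081 CPM at LH against 1714 and 1245 CPM at LL, and their part in the PTGS2 values was not tested. The 6 luminal epithelial markers other than EPCAM and CLDN4 summed to 283 and 272 CPM at LH against 103 and 196 CPM at LL. Among them only SPP1, which encodes osteopontin, was lower in both LL libraries (274 and 193 CPM at LH, 10.2 and 26.9 CPM at LL). PAEP, a milk whey protein, had 2.54 and 31.5 CPM at LH and 49.3 and 81.6 CPM at LL, LTF overlapped between the stages, and CSN2, CSN3 and LALBA were higher in LL at 0.18 to 19.1 CPM. Per UMI of the 6 luminal markers, IL18 gave 0.324, 0.361, 0.300 and 0.147 UMIs in the EDNRA/IGFBP7 gate. In the EPCAM/CLDN4 gate the same ratio was 0.0693, 0.0490, 0.0528 and 0.0326. The part of epithelial transcripts in the IL18 values was not tested. The part of the immediate early genes in the NFKBIA values was not tested.

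Of the pathway list, 13 genes were tested by stage in the EDNRA/IGFBP7 gate, with 0 called by edgeR, 2 at an unadjusted p under 0.05 and 1 called by DESeq2. Over all 11685 genes these counts were 4, 828 and 60. ICAM1, the DESeq2 call, had a log2 fold change of 1.26 ± 0.22 (edgeR, adjusted p = 0.462; DESeq2, 0.0153). CXCL1 had 2.01 ± 0.81 (edgeR, adjusted p = 0.691). The median over the 13 genes was -0.03, beside -0.01 over all genes.

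In the C1QA gate the myeloid cytokines overlapped between stages. IL1B had a log2 fold change of -1.18 ± 0.77 and CXCL8 one of -1.03 ± 0.62 (edgeR, adjusted p = 0.805 and 0.787). Both values turned positive, to 0.13 and 0.31, without LH replicate 1, whose levels were the highest. IL1A, NFKBIA, IL18 and PTGS2 had 0.06, 0.10, -0.09 and 0.24 (adjusted p from 0.958 to 0.993). No member had an unadjusted p under 0.05 in this gate and none was called by DESeq2. The number of genes called was 1, against 0 without LH replicate 1, 6 without LH replicate 2 and 54 without LL replicate 2.

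Whether the stage differences of the 2 gates differed from each other was tested with an interaction term. The stage difference of the EDNRA/IGFBP7 gate minus that of the C1QA gate was -1.54 ± 0.32 for IL18 (edgeR, unadjusted p = 0.0010, adjusted p = 0.541) and 1.25 ± 0.44 for NFKBIA (unadjusted p = 0.019, adjusted p = 0.636). No member passed and 0% of 10042 genes were called (749 at an unadjusted p under 0.05), so a difference between the gates was not shown, although 2 members reached an unadjusted p below 0.05. The count of genes called was 33 without LH replicate 1, 233 without LH replicate 2 and 3 without LL replicate 2.

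Members with an unadjusted p under 0.05 were also found in other groups of cells, none of them passing by edgeR. In the EPCAM/CLDN4 gate this was 1 of 6 members tested, beside 860 of all 12783 genes. In the SELP/KDR gate it was 1 of 2, beside 315 of 6690 genes. In ungated cells it was 4 of 7, IL1B and CXCL8 among them, beside 718 of 11905 genes. In ungated cells IL1B had 36.1 and 49.6 CPM at LH against 11.1 and 9.50 CPM at LL (log2 fold change -2.00 ± 0.29, edgeR, adjusted p = 0.770; DESeq2, 0.0046). CXCL8 there had 44.6 and 41.1 CPM at LH against 17.8 and 12.5 CPM at LL (-1.46 ± 0.36, edgeR, adjusted p = 0.770). These values rest on few ungated cells, with IL1B in 22 and 36 at LH and 27 and 13 at LL. CXCL8 was found in 23 and 41 ungated cells at LH and 57 and 16 at LL. In LH replicate 1 the highest ungated cell held 69 of 178 IL1B UMIs, and for CXCL8 68 of 220. Without LH replicate 2 the adjusted p of IL1B was 0.043 by edgeR, in a fit that called 922 genes. NFKBIA in SELP/KDR cells had 858 and 732 CPM at LH against 1386 and 1327 CPM at LL (0.85 ± 0.30, edgeR, adjusted p = 0.940). IL1A in EPCAM/CLDN4 cells had 23.6 and 11.7 CPM at LH against 6.84 and 6.49 CPM at LL (-1.34 ± 0.40, edgeR, adjusted p = 0.700).

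Over all kept cells IL1B had 67.5 and 17.7 CPM at LH against 7.71 and 7.38 CPM at LL (log2 fold change -2.52 ± 0.70, edgeR, adjusted p = 0.972; DESeq2, 0.0449). IL1A had 171 and 77.7 CPM at LH against 48.2 and 53.9 CPM at LL (-1.31 ± 0.44, edgeR, adjusted p = 0.972). C1QA cells made up 3.70% and 3.90% of kept cells in LH and 2.11% and 1.13% in LL. In such sums fewer cells of a type and less RNA per cell cannot be told apart.

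Finally, the genes with a symbol whose level followed each member most closely over 26 gate and library sums were named by Spearman correlation, among 472 genes. They were UCP2 (0.841), TNF (0.837) and CD86 (0.825) for IL1A, and CXCL8 (0.740), FCGR3A (0.702) and TLR8 (0.677) for IL1B. For CXCL8 they were PLAUR (0.754), IL1B (0.740) and LYZ (0.724). CAV1 (0.838), IGFBP5 (0.806) and NFIL3 (0.805) followed IL6, and MMP14 (0.906), PMP22 (0.867) and MMP19 (0.856) followed PTGS2. CLDN1 (0.833), ARNT2 (0.832) and ITGAV (0.824) followed IL18, and GNAI2 (0.711), LYN (0.711) and SQSTM1 (0.698) followed NFKBIA. The sums share libraries and cell types, so these values describe likeness of profile and carry no p.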

How the data were processed

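The deposited UMI counts, 1 value per gene and barcode, were the starting point. The submitters' processing notes name Cell Ranger 5.0.1, STAR and Seurat 3.2.0, while the file headers name version 7.2.0 of Cell Ranger. The genome build is not given in the sources used here, so no coordinates or sequences are shown. Barcodes with over 20% mitochondrial UMIs (13 genes) were left out, as were 3.14% to 4.35% of the cells of each library with a Scrublet score over 0.2 (scanpy 1.11.5). That threshold was set after the automatic one called no cell of LH replicate 1. Gates needed at least 1 UMI of CD3E, CD14, EDNRA, EPCAM, CLDN4, SELP or KDR, or at least 2 UMIs and 0.1% of the cell's UMIs of C1QA, DCN or IGFBP7. CPM is UMIs per 1000000 UMIs of the gate's summed cells.

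Sums of at least 20 cells per library were tested with edgeR 4.0.16 (quasi-likelihood, TMM, filter with a minimum count of 10) in R 4.3.3. DESeq2 1.42.0 served as an alternative. The edgeR code was also run on simulated counts with 1 fixed spread for all genes. That run does not show how the tests behave at the spread between these ewes. A cell that met several gates was left out of them. Shares of cells are counts over cells, and their precision covers counting error only. The named genes were all 7 members, listed genes past the test and, per member, the 3 genes of most similar profile over sums of at least 50 cells, compared as log2(CPM + 5) among genes reaching 20 CPM. Members and gene lists were chosen with earlier results of these data known, and an earlier clustering had already shown higher NFKBIA in LL stromal cells, so that pattern is not independent support.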

Additional observations from a re-analysis of the deposited data

How the results depend on the processing

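Between myeloid and stromal cells, 102 of 103 member values kept direction and call over the alternatives, PTGS2 without LL replicate 2 being the exception. With stricter gates IL6 did not pass the filter there. By stage no edgeR call of a member was gained except with no low-count filter (IL6, IL18, PTGS2 and NFKBIA in the EDNRA/IGFBP7 gate, and IL18 in the comparison of gates) and for IL1B in ungated cells without LH replicate 2. Values that changed sign were those of C1QA cells with IL1A at -0.19 under the replicate block, and, with 1 library left out, IL1A from -1.3 to 0.74, IL1B from -2.57 to 0.13, CXCL8 from -1.73 to 0.31, PTGS2 from -0.40 to 1.33 and NFKBIA from -0.13 to 0.36. In EDNRA/IGFBP7 cells IL1A was 2.44 with stricter gates. The cause was not tested.

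Genes called by stage depended on the setting. DESeq2 called 9 in C1QA, 60 in EDNRA/IGFBP7, 100 in EPCAM/CLDN4, 19 in SELP/KDR, 20 in CD3E, 76 in ungated and 96 in all cells. With no filter on low counts edgeR called 115, 201, 10, 210, 200 and 1 in the first 6, and 107 in the comparison of gates. With the replicate block it called 12 in C1QA, 1 in EPCAM/CLDN4 and 21 in CD3E cells. Same-numbered libraries deviated with correlations of -0.14 to 0.15, so the numbers were not taken as pairs. Stricter gates gave 2 in EDNRA/IGFBP7 and 3 in CD3E, and cells without FABP4, chosen after seeing the data, gave 2. Leaving out 1 library gave 0 to 54 in C1QA, 1 to 31 in EDNRA/IGFBP7, 0 to 15 in EPCAM/CLDN4, 0 to 6 in SELP/KDR, 1 to 67 in CD3E and 0 to 922 in ungated cells, and 0 to 233 in the comparison of gates.

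The share of C1QA cells with IL1A, as a mean of the 4 libraries, was 53.3% over all 934 cells. It was 67.7% among the 576 cells that reached 2000 UMIs, thinned to that depth. Shares at 2000 UMIs leave out the shallower cells, so the 2 kinds of share cover different cells. In EPCAM/CLDN4 cells the share with IL18 was 68.5%, 38.1% at 2000 UMIs and 83.0% with stricter gates, and that with NFKBIA 88.1%, 68.3% and 93.1%. There were 2 ewes per stage, and IL6 rested on 15 to 357 UMIs per library in its main gate.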
